A study of Mus musculus with 27 samples.

Results

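Cholangiocyte and ductular reaction genes were followed through 27 mouse liver libraries. The set held 10 genes chosen by symbol (Krt19, Krt7, Epcam, Cldn4, Cftr, Cd24a, Sox9, Tff3, Krt23 and S100a10), all 10 of which were found among the 17655 genes of the count tables. Cholangiocytes are the epithelial cells that line the bile ducts, and they are a small part of the liver beside hepatocytes. In injured liver, small duct-like structures expand from the portal tracts, and hepatocytes can switch on part of the biliary program. This response is called the ductular reaction, and it is known in alcohol-associated hepatitis and in biliary disease. It usually comes with myofibroblasts and matrix around the new ductules.

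All mice carried the floxed Kdm5b allele on both chromosomes (Kdm5b fl/fl), Kdm5b being a histone H3 lysine 4 demethylase. Their feed was a Western diet, and they drank water to which alcohol was added (WDA). Those of the WDA stage were taken after 8 weeks of WDA (experiment 11), and those of the resolution stage (Res) had 16 weeks of WDA and then 4 weeks of resolution, on chow and plain water (experiment 12). Mice received a control vector (WT), AAV8-CMV-Cre (KO), which is delivered to the liver but is not specific for a cell type, or AAV8-TBG-Cre (HepKO), whose promoter is active in hepatocytes. The study's methods give the vector at the start of feeding in WDA mice and after its end, following a surgical liver biopsy, in Res mice, and they give mice that were young adults when feeding began. The 9 groups held 3 mice each. They were WT, KO and HepKO females at WDA, WT and KO males at WDA, and WT and KO of each sex at Res. Stage, experiment, length of feeding, diet and drink at sampling, biopsy, age at sampling and time of vector injection changed together and cannot be told apart.

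Library totals ran from 14634602 to 19388251 counts, with a median of 17944536. Kdm5b averaged 21.7 ± 4.33 CPM in WT (SD, n = 12), 16.1 ± 5.11 CPM in KO (n = 12) and 13.3 ± 4.63 CPM in HepKO (n = 3). The Kdm5b values of WT (16.6 to 31.2 CPM) and KO (7.93 to 24.1 CPM) overlapped, and counts cover the whole gene, not the floxed part alone. At WDA they were 21.4 to 31.2 CPM in WT, 14.5 to 24.1 CPM in KO and 8.30 to 17.4 CPM in HepKO, which did not overlap WT. At Res they were 16.6 to 19.6 CPM in WT and 7.93 to 17.2 CPM in KO. Counts of 4 Y-linked genes followed the labelled sex in all 27 libraries (6 to 38.9 in females, 1440 to 2748 in males). Among males, Cyp2b9, a cytochrome P450 that is high in female liver, had 2228 counts in KO WDA mouse 17 and 2157 in KO Res mouse 5, against 26 to 921 in the other 10 males and 6301 to 16541 in females. The library labelled KO Res male mouse 5 also had 244 counts of the female-biased sulfotransferase Sult3a1, against 0 to 21 in those 10 males.

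Upstream sequence was at hand for 5 of the 10 genes, from RefSeq promoters of GRCm38.p6. The 250 bases before the start are shown for Epcam, whose counts set 5 libraries apart, for Krt23, whose level differed most between the stages, and for Cldn4, which held matches to the motifs searched. Capitals mark those matches. On the same build the protein-coding genes Krt23, S100a10, Tff3 and Sox9 lie at chr11:99477973-99493120, chr3:93555117-93564645, chr17:31125306-31129611 and chr11:112782210-112787757.
Epcam (chr17:87635729-87635978, plus strand): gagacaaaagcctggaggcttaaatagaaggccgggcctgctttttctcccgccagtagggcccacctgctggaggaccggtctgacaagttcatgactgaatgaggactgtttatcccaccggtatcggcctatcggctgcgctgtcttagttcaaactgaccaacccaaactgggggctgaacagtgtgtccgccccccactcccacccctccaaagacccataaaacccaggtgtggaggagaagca
Cldn4 (chr5:134946935-134947184, minus strand): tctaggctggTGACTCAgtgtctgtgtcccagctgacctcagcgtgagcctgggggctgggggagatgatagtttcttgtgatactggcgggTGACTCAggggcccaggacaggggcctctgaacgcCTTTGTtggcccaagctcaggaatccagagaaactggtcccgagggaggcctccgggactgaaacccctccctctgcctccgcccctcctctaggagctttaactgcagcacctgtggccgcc
Krt23 (chr11:99493121-99493370, minus strand): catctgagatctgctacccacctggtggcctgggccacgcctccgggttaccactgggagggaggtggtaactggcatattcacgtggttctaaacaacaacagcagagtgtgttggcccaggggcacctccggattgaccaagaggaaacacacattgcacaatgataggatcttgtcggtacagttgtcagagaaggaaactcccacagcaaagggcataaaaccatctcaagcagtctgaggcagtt

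Letters of 6 motifs were searched on both strands of these windows: TEAD (CATTCC), RBPJ (TGGGAA), AP-1 (TGANTCA), HNF1 (GTTAAT), SOX (ACAAAG) and the TATA box (TATAAA). The AP-1 letters occurred in Cldn4 alone of the 5 genes, starting at 240 and 158 bases before its start, and 6.75% of all 32851 promoters held them. The SOX letters also occurred in Cldn4 alone, on the reverse strand from 123 to 118 bases before the start, and 16.5% of all promoters held them. The TEAD, RBPJ, HNF1 and TATA letters were in none of the 5 windows, against 12.6%, 21.6%, 6.43% and 12.4% of all promoters. The windows of the other 5 genes were not analysed here.

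The 10 genes covered a wide range of levels. On the FPKM scale, which is per length, the medians over 27 libraries were 290.2 for S100a10, 5.03 for Krt23, 1.74 for Cd24a, 1.59 for Tff3, 0.79 for Sox9, 0.72 for Epcam, 0.43 for Krt19, 0.2 for Krt7, 0.18 for Cldn4 and 0.02 for Cftr. S100a10 encodes a light chain of the annexin A2 complex and is not restricted to ducts. Krt23 is an acidic keratin that hepatocytes can express under injury. The defining duct keratins Krt19 and Krt7 and the chloride channel Cftr were near the lower end. Cftr had 3 counts or fewer in 17 of 27 libraries, Tff3 in 11, Cldn4 in 10, Krt7 in 8 and Krt19 in 2. A count of 0 allows up to 3 counts at this depth, and these limits cover counting error only. The labelled tissue is whole liver, and in bulk RNA fewer cells of a type and less RNA per cell cannot be told apart.

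A small number of libraries carried most of the duct signal. Epcam, the epithelial adhesion molecule of duct cells, had 497 counts in KO WDA male mouse 17, 431 in WT WDA female mouse 7, 268 in WT Res female mouse 13, 147 in KO Res male mouse 5 and 147 in WT Res male mouse 9. The other 22 libraries had 7 to 77 Epcam counts, with a median of 19.5. These 5 libraries, each with over 100 Epcam counts, came from 5 different groups. They were singled out after the counts were seen, by a count of one of the 10 genes, so their higher duct values are a description without a test.

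Epcam in the remaining libraries was lower but not even, and KO WDA male mouse 18 (77 counts) and WT WDA male mouse 19 (52 counts) were the highest of them. WT WDA females had 24 and 16 counts beside mouse 7, KO WDA females 14, 11 and 15, and HepKO WDA females 14, 24 and 28. WT WDA males had 52, 13 and 18, and KO WDA males 19 and 77 beside mouse 17. WT Res females had 32 and 29 beside mouse 13, KO Res females 21, 19 and 31, WT Res males 18 and 7 beside mouse 9, and KO Res males 26 and 20 beside mouse 5. No group had a second library above 77, and the 9 female libraries of KO and HepKO stayed between 11 and 31.

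Krt19, the keratin most used to stain bile ducts, followed Epcam. Its counts were 167, 145, 100, 58 and 52 in the 5 libraries, in the order KO WDA male 17, WT WDA female 7, WT Res female 13, KO Res male 5 and WT Res male 9. In the other 22 it ran from 0, in KO Res female mouse 4, to 27, in KO WDA male mouse 18, with a median of 8. The 5 libraries held 73.1% of all 714 Krt19 counts, where equal shares would put 18.5% in them. The same share was 70.0% for Krt7, 73.8% for Epcam, 79.7% for the tight junction protein Cldn4, 78.7% for Cftr and 67.1% for the surface sialoglycoprotein Cd24a. For Krt19, Cldn4, Cftr, Cd24a and Sox9 the 5 highest libraries were these 5, as they were for Epcam by the way they were chosen. For Krt7 and Tff3, 4 of the top 5 were. In CPM, 4.97% of the 13534 genes that passed the filter on low counts were higher in each of the 5 than in all of the 22.

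**Figure D1:**
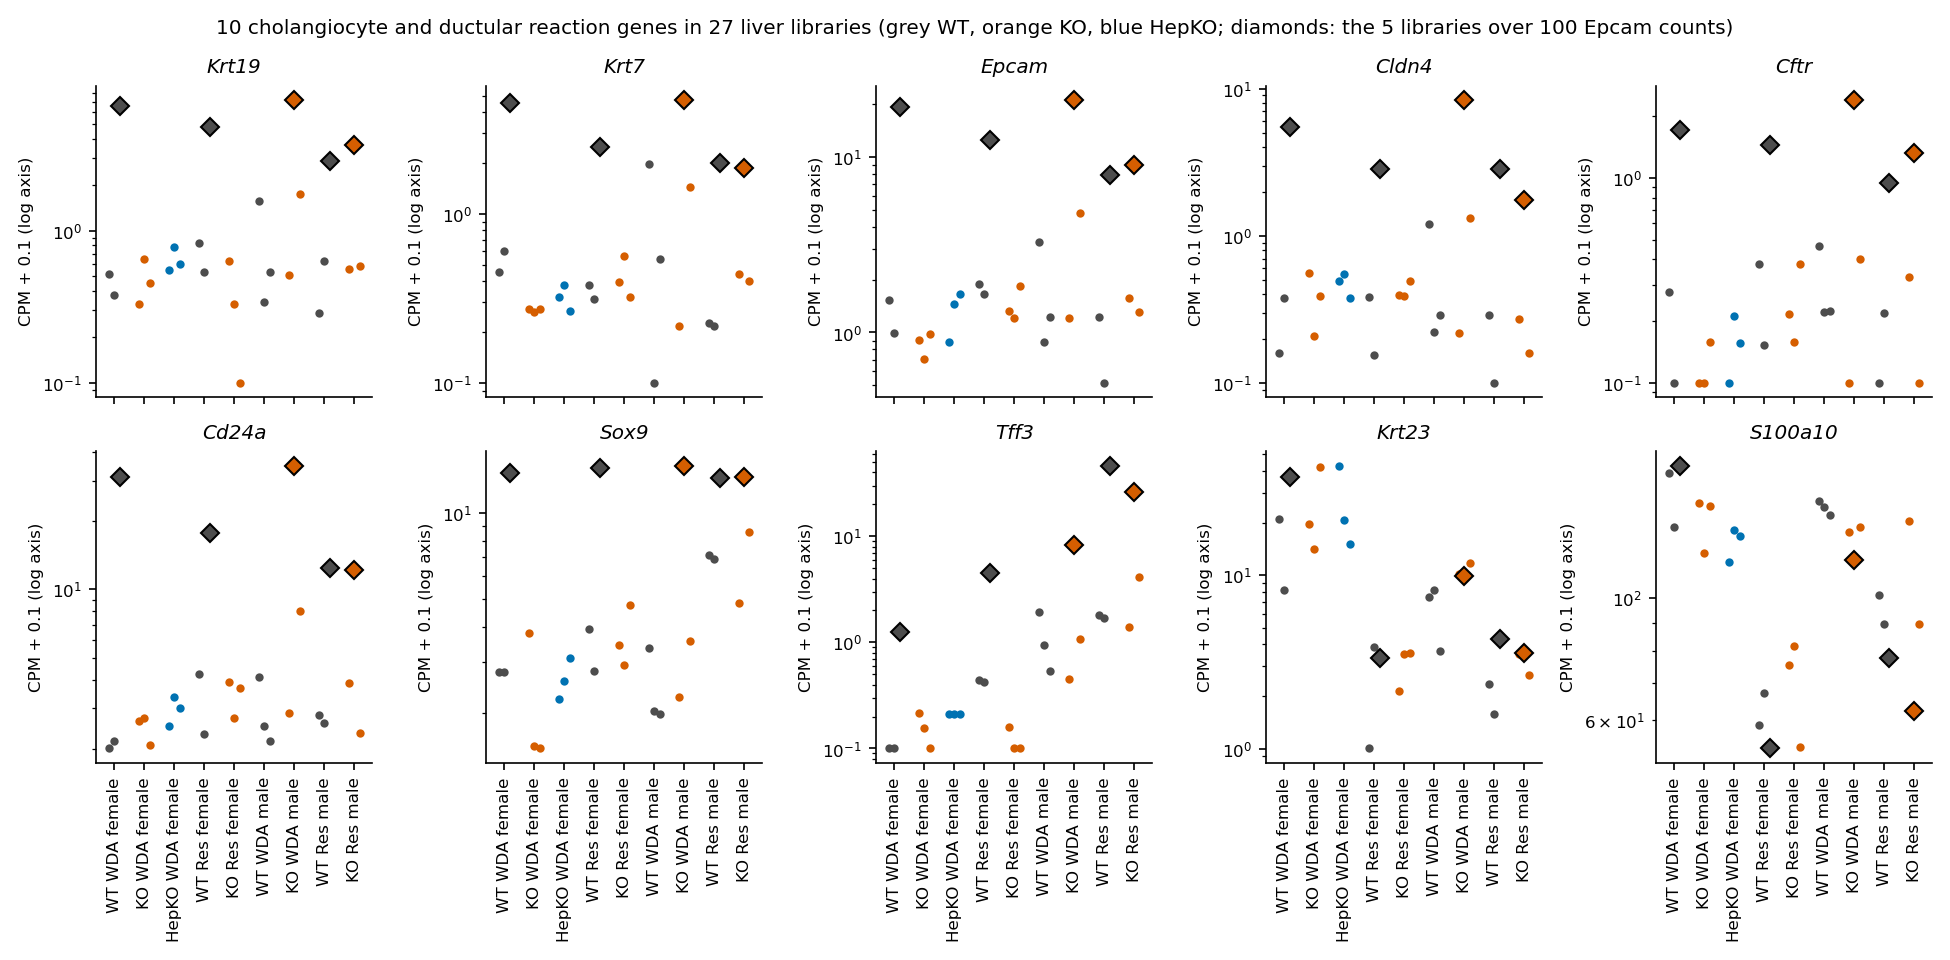
Level of each gene in each of 27 libraries, as CPM + 0.1 on a log axis, by group, with WT in grey, KO in orange and HepKO in blue; diamonds mark the 5 libraries over 100 Epcam counts. The diamonds stand above the circles for Krt19, Epcam, Cldn4, Cftr, Cd24a and Sox9, while Krt23 and S100a10 follow the stage and Tff3 is lower in females.

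On the CPM scale the highest library stood at 15.9 times the median of the 22 for Krt19, 18.2 times for Krt7, 17.96 times for Epcam, 29.6 times for Cldn4, 26.7 times for Cftr and 13.3 times for Cd24a, all in KO WDA male mouse 17. Sox9, the transcription factor of biliary progenitors and duct cells, was less spread, with 13.1 to 14.6 CPM in the 5 libraries against 1.40 to 8.48 CPM in the 22. Its share of counts in the 5 libraries was 52.1%. Krt23 and S100a10 were not concentrated, with 22.7% and 19.1% of their counts there.

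Within the 5 libraries the duct genes kept similar proportions to one another. Each Krt19 count came with 2.53 to 2.98 Epcam counts, 0.50 to 0.69 Krt7 counts, 0.25 to 0.34 Cftr counts and 3.41 to 4.92 Cd24a counts. Summed over the other 22 libraries, the ratios were 2.75 for Epcam, 0.72 for Krt7, 0.22 for Cftr and 5.94 for Cd24a. Cldn4 ran from 0.47 to 1.17 counts per Krt19 count, with 0.60 over the 22. Sox9 ran from 2.06 to 4.77, and its ratio over the 22 was higher, at 6.82. Tff3, the trefoil peptide of mucus-secreting epithelia, differed 93.8 times between the lowest ratio, 0.18 in WT WDA female mouse 7, and the highest, 16.8 in WT Res male mouse 9, with 1.24 over the 22. Counting error alone is large for Cftr, which had 16 to 54 counts in these libraries.

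**Figure D2:**
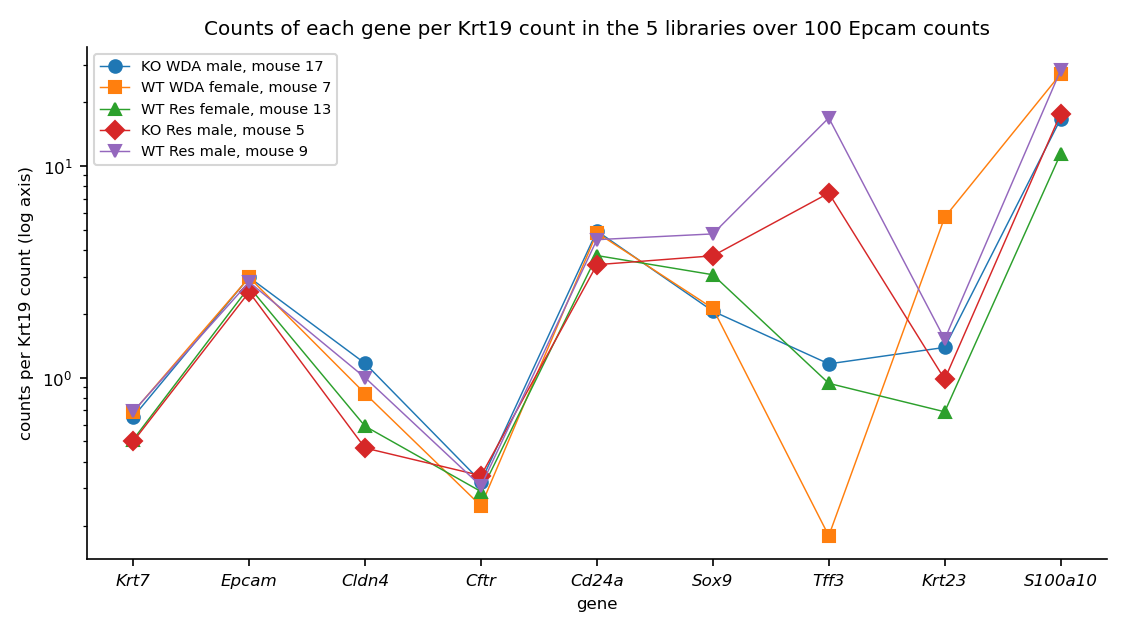
Counts of 9 genes per Krt19 count (log axis) in the 5 libraries over 100 Epcam counts, 1 line per library. Lines lie close for Krt7, Epcam, Cftr and Cd24a and fan out for Tff3, from 0.18 to 16.8, and for Krt23, from 0.69 to 5.72.

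The rank correlation of log2 CPM between pairs of Krt19, Krt7, Epcam, Cldn4, Cftr and Cd24a ran from 0.52 to 0.79 over 27 libraries, with a median of 0.67 over 15 pairs. Over the 22 libraries it ran from 0.11 to 0.61, with a median of 0.38. Tff3 with those 6 genes had a median of 0.49 over 27 libraries and 0.15 over 22, Sox9 0.53 and 0.13, Krt23 -0.08 and -0.14, and S100a10 -0.10 and 0.05. The points of each correlation share their library and its scaling, and values near 0 to 5 counts carry much counting error.

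Other marker lists were read in the same libraries. Of 25 other biliary and ductular genes, 17 were higher in each of the 5 libraries than in all of the 22, beside 4.97% of 13534 genes that passed the filter on low counts. Their summed level was 628 to 1535 CPM in the 5 libraries and 256 to 770 CPM in the 22. Examples, chosen after their values were seen, are osteopontin (Spp1), at 129 to 479 CPM against 12.3 to 93.8 CPM, and Cdh1, the epithelial cadherin, at 51.3 to 110 CPM against 6.09 to 30.0 CPM. A list of 20 Notch, YAP, TWEAK and related signal genes summed to 364 to 442 CPM in the 5 libraries against 330 to 430 CPM in the 22. Of these 20, 3 were higher in all 5 libraries (Notch3, Jag2 and Ankrd1). The 10 myofibroblast and stellate genes summed to 425 to 887 CPM in the 5 libraries against 192 to 413 CPM in the 22. Of these 10, 2 were higher in all 5 libraries (Pdgfrb and Lum).

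The 6 mesothelial genes, which mark the liver surface, summed to 5.37 to 10.8 CPM in the 5 libraries and 0.70 to 12.8 CPM in the 22, the highest of which was WT WDA male mouse 19. Of these genes 2 of 6 were higher in all 5 libraries (Wt1, at 1.07 to 2.56 against at most 0.68 CPM, and Gpm6a, at 3.38 to 6.34 against at most 3.28 CPM). The share among the 13534 genes that passed the filter on low counts was 4.97%. Proliferation genes (5) summed to 6.66 to 18.9 CPM against 2.48 to 9.92 CPM. Hepatocyte genes (6) summed to 70830 to 93737 CPM against 71346 to 164070 CPM, and endothelial genes (6) to 170 to 203 CPM against 188 to 342 CPM. Macrophage genes (8) were at 324 to 1089 CPM against 247 to 678 CPM, lymphocyte genes (6) at 19.3 to 36.0 CPM against 12.6 to 39.6 CPM and erythroid genes (5) at 195 to 427 CPM against 333 to 1129 CPM. Pancreatic acinar genes (6) summed to 119 CPM in WT Res female mouse 13 and to at most 1.33 CPM in the 22. Intestinal genes (5) were at 49.0 to 103 CPM against 50.9 to 222 CPM, and their defining markers Cdx1 and Cdx2 had 3 counts or fewer in every library. Of the hepatocyte, endothelial, macrophage, lymphocyte, erythroid, proliferation, acinar and intestinal genes, 0 were higher in each of the 5 libraries than in all of the 22. The macrophage gene Clec4f was lower in each of the 5 (24.6 to 47.1 against 67.4 to 141 CPM). So was the endothelial gene Clec4g (17.5 to 25.4 against 35.6 to 56.5 CPM). The share of all genes that were lower in each of the 5 is not given here. Macrophage genes differed in direction, with higher medians, though overlapping values, for Gpnmb (56.9 against 2.42 CPM) and Trem2 (8.85 against 0.96 CPM). These genes were picked after their values were seen. The same 5 libraries had 12983 to 13462 genes with at least 10 counts, against 12107 to 12623 in the 22. Their TMM scaling factors were 1.084 to 1.359 and overlapped those of the 22, at 0.8519 to 1.092. The part of any of these in the duct signal was not tested.

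**Figure D3:**
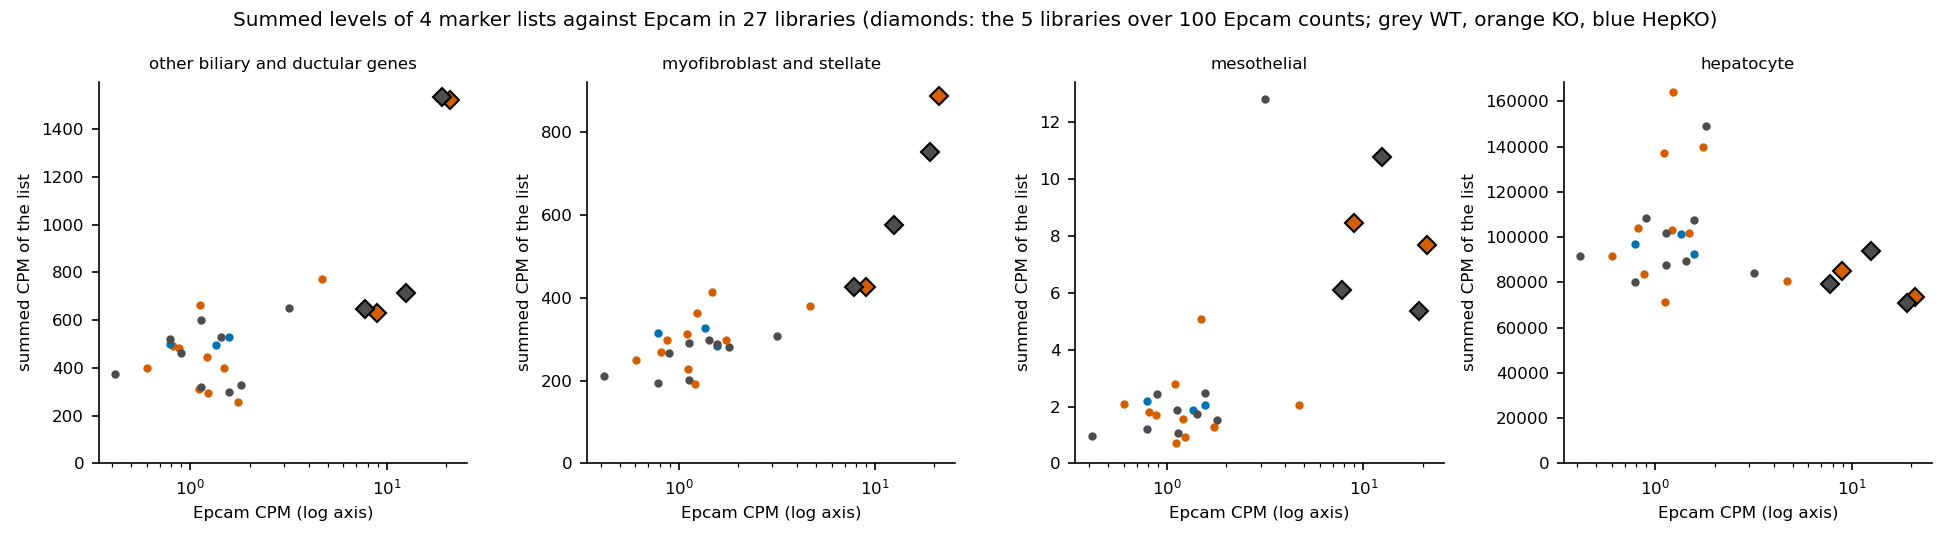
Summed CPM of 4 marker lists against Epcam CPM (log axis) in 27 libraries, with diamonds for the 5 libraries over 100 Epcam counts. The 2 libraries with the most Epcam have the highest biliary and myofibroblast sums, mesothelial genes are highest in WT WDA male mouse 19, at 3.16 CPM of Epcam, and the hepatocyte sum of the 5 libraries is 70830 to 93737 CPM.

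The genes whose pattern was most like the mean z-score of the 10 genes, out of 13524 others, were ranked by Spearman correlation over 27 libraries. They were Ehd2 (0.87), Fam83a (0.87), Arhgef25 (0.86), Col6a2 (0.86), Lhfp (0.84), Col3a1 (0.82), Fstl1 (0.82), Foxs1 (0.81), Lama2 (0.81) and Sparc (0.81). Ranked on deviations from the 9 group means, the leading genes were Cygb (0.97), Fads3 (0.96) and St14 (0.96), and 1 gene, Ehd2, was in the top 10 of both rankings. Col3a1, a fibrillar collagen, had 26.6 to 197 CPM in the 5 libraries and 5.34 to 49.1 CPM in the 22.

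The comparison of stages set livers after return to chow and plain water beside livers still under WDA. Over 24 libraries (WT and KO of both sexes), 2 of 10 genes passed an adjusted p of 0.05 in edgeR, both lower at Res, beside 15.3% of all genes tested that were called lower and 28.5% called in either direction. These were Krt23 and S100a10. The median log2 difference of the 10 genes was -0.50, and that of all genes tested was -0.01.

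Krt23 at Res lay below most or all of the WDA values in each vector and sex. WT females had 21.2, 8.08 and 36.8 CPM at WDA and 0.90, 3.78 and 3.21 CPM at Res. KO females had 19.6, 14.2 and 42.4 CPM at WDA and 2.05, 3.42 and 3.48 CPM at Res. In females the stages were separate in both vectors, as for 10.4% of all genes in WT and 20.3% in KO that were lower at Res without overlap.
WT males had 7.36, 8.17 and 3.57 CPM at WDA and 2.27, 1.48 and 4.18 CPM at Res, and these overlapped. KO males had 10.04, 9.83 and 11.7 CPM at WDA and 3.42, 3.47 and 2.54 CPM at Res, with no overlap (6.11% of all genes were lower in this way). HepKO females, measured at WDA only, had 42.9, 20.8 and 15.1 CPM, beside 8.08 to 42.4 CPM in the other females of that stage.

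The log2 difference of Krt23 over 24 libraries was -2.31 (SE 0.31, adjusted p = 1.27e-05 in edgeR), and it stayed past the threshold without any 1 library. Without the 5 libraries, a setting chosen after the counts were seen, it was -2.43 (adjusted p = 5.39e-06). By group it was -3.08 (SE 0.40, adjusted p = 0.00193) in KO females, where 20.4% of all genes were called and 10.2% called lower, and -3.05 (SE 0.69, adjusted p = 0.217) in WT females, where edgeR called 0 genes and 13.6% had an unadjusted p under 0.05. In KO males it was -1.73 (SE 0.22, adjusted p = 0.184), again with 0 genes called and 6.43% at an unadjusted p under 0.05, and in WT males -1.23 (SE 0.42, adjusted p = 0.0962), where 11% of genes were called (5.98% lower and 4.99% higher). DESeq2 called Krt23 in all 4 of these comparisons (adjusted p of 0.000481 in WT females, 0.0278 in WT males, 3.48e-07 in KO females and 8.50e-07 in KO males), beside 3.29%, 14.2%, 20.8% and 0.62% of all genes.

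S100a10 was also lower at Res over 24 libraries, by less than Krt23. WT females had 169, 135 and 175 CPM at WDA and 58.6, 67.1 and 53.1 CPM at Res. KO females had 149, 121 and 147 CPM at WDA and 75.4, 81.7 and 53.4 CPM at Res. Neither vector had an overlap between the stages in females, as for 10.4% of all genes in WT and 20.3% in KO that were lower at Res.
WT males had 150, 147 and 142 CPM at WDA and 101, 89.8 and 77.7 CPM at Res, again apart, as 19.6% of all genes were lower without overlap. KO males had 132, 118 and 135 CPM at WDA and 138, 62.0 and 89.5 CPM at Res, where mouse 11 exceeded all 3 WDA mice. HepKO females at WDA had 117, 133 and 130 CPM.

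Its log2 difference over 24 libraries was -0.88 (SE 0.12, adjusted p = 2.40e-05 in edgeR), again past the threshold without any 1 library, and -0.79 without the 5 libraries. It was called in KO females (-0.99, SE 0.16, adjusted p = 0.00437) and in WT males (-0.69, SE 0.10, adjusted p = 0.0102). In WT males it was no longer called without WDA mouse 20 (adjusted p = 0.0568) or WDA mouse 21 (adjusted p = 0.0570), or with a spread shared by all 9 groups (adjusted p = 0.0649). It was -1.42 (SE 0.18, adjusted p = 0.184) in WT females and -0.39 (SE 0.29, adjusted p = 0.817) in KO males. In WT females DESeq2 (adjusted p = 2.52e-10) and edgeR with the spread shared by all 9 groups (adjusted p = 0.000652) called it. DESeq2 also called it in WT males (adjusted p = 1.60e-06) and KO females (adjusted p = 8.13e-07), and gave an adjusted p of 0.936 in KO males. The stage difference in females minus that in males was -1.55 for Krt23 (SE 0.51, adjusted p = 0.365) and -0.64 for S100a10 (SE 0.21, adjusted p = 0.389) on the log2 scale. Neither interaction passed, beside 0.126% of all genes that did.

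**Figure D4:**
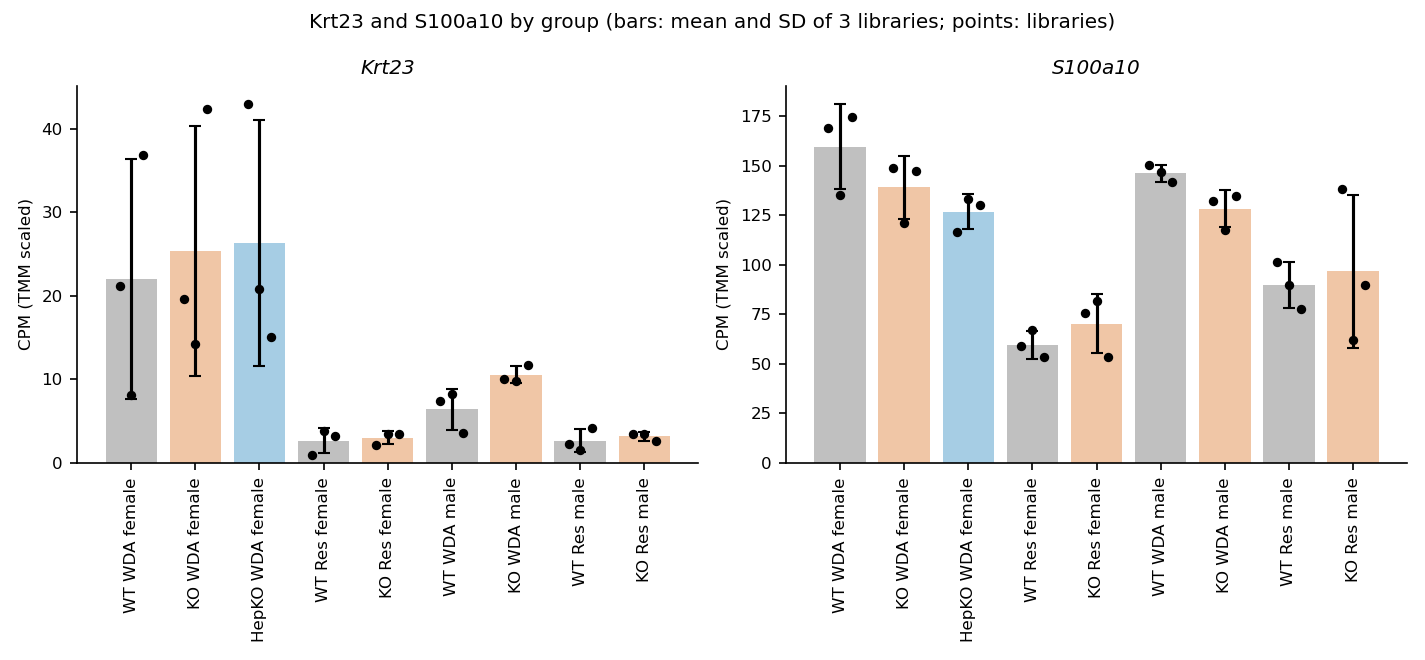
CPM of Krt23 and S100a10 by group, with bars for the mean, whiskers for the SD of 3 libraries and points for libraries. Krt23 at Res stays at or under 4.18 CPM in all 12 libraries, against 3.57 to 42.9 CPM at WDA. S100a10 at Res exceeds 101.22 CPM, the value of WT male mouse 7, in KO male mouse 11 alone.

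Sox9 showed the opposite direction in WT males. It had 3.28, 1.94 and 1.88 CPM at WDA and 7.05, 6.82 and 13.1 CPM at Res, with no overlap, as in 36% of all genes tested in these males. The log2 difference was 1.95 (SE 0.34, adjusted p = 0.0154 in edgeR), and 1.57 without mouse 9, one of the 5 libraries (adjusted p = 0.00457). The call was lost without WDA mouse 20 (adjusted p = 0.0715) or mouse 21 (adjusted p = 0.0831), and with the spread shared by all 9 groups (adjusted p = 0.154).
The other groups overlapped between stages. WT females had 2.67, 2.67 and 13.7 CPM at WDA and 3.83, 2.70 and 14.3 CPM at Res. KO females had 3.71, 1.43 and 1.40 CPM at WDA and 3.34, 2.84 and 4.66 CPM at Res, and KO males 2.17, 14.6 and 3.46 CPM at WDA and 4.73, 13.3 and 8.48 CPM at Res.
HepKO females at WDA had 2.13, 2.48 and 3.02 CPM. Over 24 libraries the difference was 0.61 (SE 0.41, adjusted p = 0.286). Without KO WDA male mouse 17 it was 1.05 (adjusted p = 0.0372), and without WT WDA female mouse 7 it was 1.08 (adjusted p = 0.0279). Without all 5 libraries it was 0.97 (SE 0.21, adjusted p = 0.00126). Those 5, chosen after the counts were seen, were also the 5 highest for Sox9. The last fit is therefore a description without a test.

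Tff3 differed between the sexes. Females had 0 to 6 counts in 13 of 15 libraries, with 26 in WT WDA mouse 7 and 94 in WT Res mouse 13, both among the 5 libraries. In KO females it did not exceed 2 counts in any of 6 mice, and in HepKO females it was 2 counts in each of 3.
Males had 6 to 875 counts. WT males had 30, 14 and 7 at WDA and 27, 27 and 875 at Res, and KO males 6, 194 and 16 at WDA and 23, 431 and 66 at Res. The highest male libraries were again among the 5.
The log2 difference of females against males over 24 libraries was -3.90 (SE 0.91, adjusted p = 0.00661 in edgeR), where 4.4% of all genes were called lower in females and 9.48% in either direction. Without WT Res male mouse 9 it was -3.12 (adjusted p = 0.0520), and it passed without each of the other 23 libraries. It was -3.99 without all 5 libraries (SE 0.51, adjusted p = 8.03e-06). Those 5, chosen after the counts were seen, held 4 of the 5 highest Tff3 libraries, so the fit without them is a description. Several female libraries were at 0, so the fitted size depends on the prior count.

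Tff3 was not called between the stages over 24 libraries (log2 difference 2.15, SE 0.86, adjusted p = 0.0625). It passed without KO WDA male mouse 17 (3.25, adjusted p = 0.00771), without WT WDA female mouse 7 (2.75, adjusted p = 0.0209) and without KO Res male mouse 11 (2.34, adjusted p = 0.0479). Without all 5 libraries the difference was 1.41 (adjusted p = 0.0215), again a description without a test. Of the other 9 genes, none passed between the sexes. Krt23 was nearest, at 0.82 higher in females (SE 0.30, adjusted p = 0.0906), and it passed without WT Res female mouse 1 (0.92, adjusted p = 0.0448) or WT Res male mouse 9 (0.96, adjusted p = 0.0399).

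**Figure D5:**
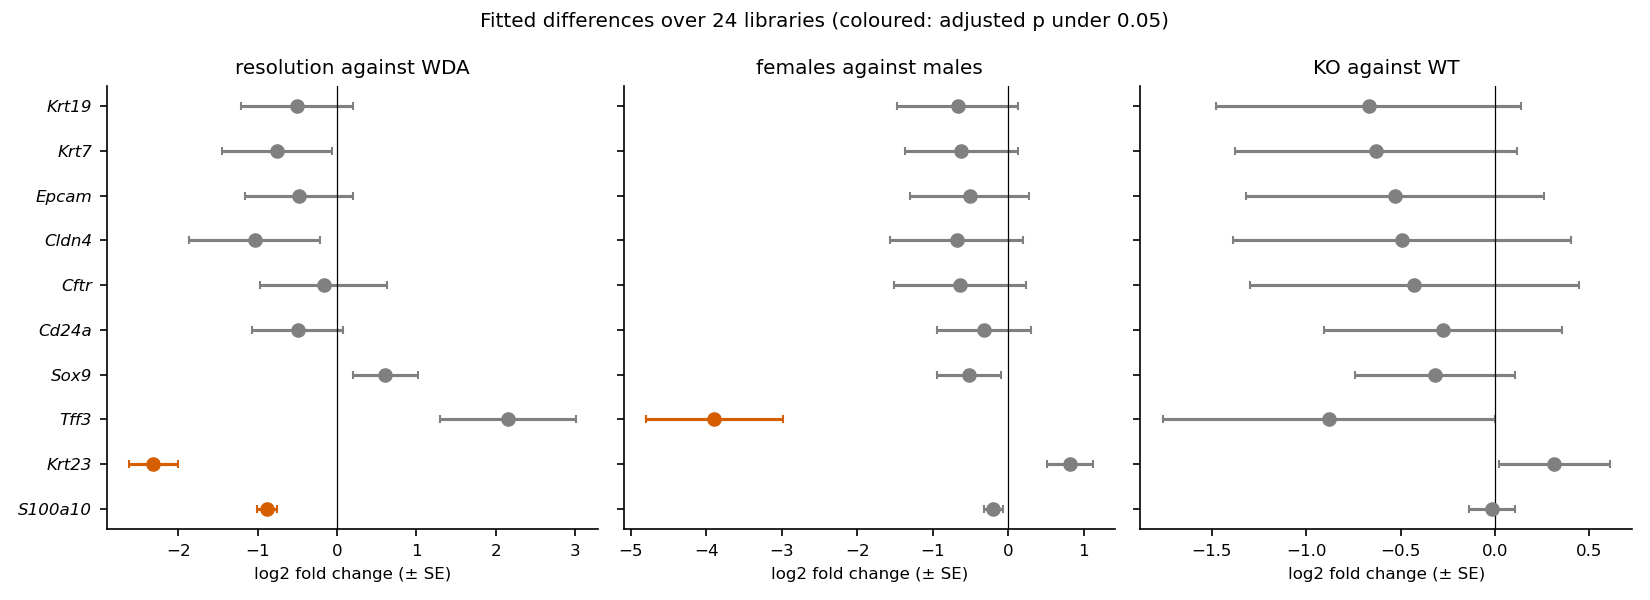
Log2 differences with SE of the 10 genes over 24 libraries, for stage, sex and vector, with orange for an adjusted p under 0.05. Krt23 (-2.31) and S100a10 (-0.88) pass for stage and Tff3 (-3.90) for sex, while the 6 genes Krt19, Krt7, Epcam, Cldn4, Cftr and Cd24a have SEs of 0.58 to 0.89 and pass in none.

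The 6 duct genes Krt19, Krt7, Epcam, Cldn4, Cftr and Cd24a passed in neither stage, sex nor vector. For stage, their log2 differences ran from -1.04 (Cldn4, SE 0.83) to -0.17 (Cftr, SE 0.80), with adjusted p from 0.373 to 0.899. Intervals of 2 SE reached from -2.69 at the lowest (Cldn4) to 1.43 at the highest (Cftr), and sizes within a gene's interval were compatible with its values. Cldn4 was 0.015 without WT WDA female mouse 7, and Cftr 0.80 without KO WDA male mouse 17. Krt19, Epcam and Cd24a also changed sign when 1 library was left out (-1.06 to 0.36, -0.95 to 0.48 and -0.82 to 0.39).
In single comparisons of 3 against 3, 5 to 9 of the 10 genes passed the filter on low counts. In KO females, where no library was among the 5, Epcam had 0.811, 0.604 and 0.875 CPM at WDA and 1.23, 1.10 and 1.74 CPM at Res, with no overlap, as in 40.4% of all genes there (log2 difference 0.83, SE 0.32, adjusted p = 0.0907).

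The comparison of vectors asked whether Kdm5b deletion changed the genes. None of the 10 passed over 24 libraries, where edgeR called 0 of 13519 genes, 8.19% had an unadjusted p under 0.05 and DESeq2 called 0.141%. Log2 differences of KO against WT ran from -0.88 for Tff3 (SE 0.88) to 0.32 for Krt23 (SE 0.29), and that of S100a10 was -0.02 (SE 0.12). None passed in the 4 comparisons by stage and sex, nor for HepKO against WT or KO, with edgeR or DESeq2. At an unadjusted p under 0.05 edgeR had 1 of 5 tested genes in WDA females, 2 of 9 in WDA males, 1 of 5 in Res females and 0 of 6 in Res males, beside 3.11%, 7.71%, 19.2% and 1.45% of all genes. It had 0 of 5 for HepKO against WT and 0 of 5 for HepKO against KO, beside 10.1% and 5.74%. DESeq2 called 0.0648%, 0.137%, 5.59% and 0.0555% of all genes in the 4 comparisons, and 2.06% and 0.308% for HepKO against WT and KO.

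The 5 libraries were unevenly placed in these comparisons. In WDA females Epcam had 0.811, 0.604 and 0.875 CPM in KO against 1.43, 0.891 and 19.1 CPM in WT, without overlap, as 3.82% of all genes were lower in KO, with a log2 difference of -3.27 (SE 1.18, adjusted p = 0.978) that was -0.59 without WT mouse 7. In Res females it was -2.02 (SE 0.80, adjusted p = 0.230), and -0.33 without WT mouse 13. In WDA males the high library was in KO, and the difference of Epcam was 2.44 (SE 1.05, adjusted p = 0.588), or 0.77 without mouse 17. In Res males both vectors had 1 such library, and the difference was 0.32 (SE 1.02, adjusted p = 0.9998), with a range of -1.24 to 2.34 when leaving out 1 library.
Krt23 had 9.83 to 11.7 CPM in KO and 3.57 to 8.17 CPM in WT males at WDA. Its log2 difference was 0.74 (SE 0.30, adjusted p = 0.588). S100a10 had 118 to 135 CPM in KO and 142 to 150 CPM in WT there. Neither gene overlapped, as for 16.3% of all genes. Krt7 in WDA females and Tff3 in Res females were lower in KO without overlap. Krt7 and S100a10 were lower in HepKO than in WT. Krt7 and Tff3 did not pass the filter on low counts there, and shares of all genes are not given for Res females and HepKO.

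The vector difference in females minus that in males was -3.93 for Epcam (SE 1.24, adjusted p = 0.195) and -3.97 for Krt19 (SE 1.28, adjusted p = 0.201) on the log2 scale. Without the 5 libraries it was -1.13 for Epcam (SE 0.68) and -1.04 for Krt19 (SE 0.86). Of the 10 genes 7 had an unadjusted p under 0.05 for this interaction, as had 17.1% of all genes, edgeR called 0 genes and DESeq2 0.763%, none of the 10. Both female libraries of the 5 were WT, and of the 3 male ones 2 were KO. The stage by vector interaction had no gene of the 10 under an unadjusted p of 0.05, beside 2.34% of all genes.

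HepKO females at WDA had no library among the 5. Their Krt19 counts were 8, 12 and 9, their Krt7 counts 4, 5 and 3, and their Cd24a levels 2.41, 3.27 and 2.90 CPM. Cd24a differed from KO by 0.26 (SE 0.22, adjusted p = 0.988) and Epcam by 0.69 (SE 0.34, adjusted p = 0.884) on the log2 scale, where 0.0162% of genes were called.

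Other genes of the ductular reaction were tested in the same fits. Of 25 other biliary genes, 24 passed the filter over 24 libraries, 1 was higher and 4 were lower at Res, beside 28.5% of all genes that were called (15.3% lower). In females 1 was higher and 1 lower, beside 9.48% of all genes called, and 0 passed by vector. These counts were near or below the shares of all genes, and the genes named next are a description of single members. Their median log2 difference between stages was -0.50. The 4 lower genes were Krt18 (-0.91, SE 0.11, adjusted p = 3.94e-06) and its partner Krt8 (-1.07, SE 0.14, adjusted p = 1.24e-05), keratins of hepatocytes and duct cells alike, the secreted inhibitor Wfdc2 (-1.25, SE 0.20, adjusted p = 7.79e-05) and the claudin Cldn3 (-0.69, SE 0.12, adjusted p = 0.000151). Krt8 averaged 230 ± 77.5 CPM at WDA and 109 ± 20.3 CPM at Res (SD, n = 12 each). The bile acid transporter Slc10a2, which duct cells use for uptake, rose by 1.57 (SE 0.37, adjusted p = 0.00253), from 2.92 ± 2.63 to 8.17 ± 3.87 CPM.

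Of 20 genes of signals known in the ductular reaction, which hold Notch, YAP and TWEAK genes and also Lif, Lifr, Il6 and Hgf, 18 passed the filter. At Res 2 were higher and 3 lower, again near the 28.5% of all genes that were called. In females 3 were higher and 0 lower, beside 9.48% of all genes called in either direction, and 0 passed by vector. Nothing particular to the list is read from the stage counts. For sex, 3 of 18 is a larger share than that of all genes, on few genes and without a test of the list. The receptor Notch1 rose by 0.59 (SE 0.10, adjusted p = 0.000139) and the YAP partner Tead1 by 0.83 (SE 0.18, adjusted p = 0.00110). The YAP target Ccn1 fell by 0.71 (SE 0.14, adjusted p = 0.000889), the TWEAK ligand Tnfsf12 fell by 0.56 (SE 0.13, adjusted p = 0.00220) and Yap1 fell by 0.16 (SE 0.06, adjusted p = 0.0426), on the log2 scale. The Notch target Hes1 was 0.49 higher in females (SE 0.14, adjusted p = 0.0300), as were Notch1 (0.32, adjusted p = 0.0402) and Tead1 (0.58, adjusted p = 0.0370).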

How the data were processed

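Liver RNA of 27 mice was sequenced by BGI. Per the study's methods and processing notes, the authors aligned reads with HISAT (genome) and Bowtie2 (genes) against GRCm38.p6. The deposited tables, 1 per sex and stage, hold a read count per gene, an estimated count that is not always whole, and FPKM made by the authors. A gene missing from a table was set to 0, and expected counts were rounded. Groups came from the labels. Counts were scaled by TMM and tested with edgeR 4.0.16 (quasi-likelihood, filterByExpr with a minimum count of 10, Benjamini-Hochberg adjustment over all genes tested) in R 4.3.3, with DESeq2 1.42.0 as an alternative. Fits over 24 libraries held sex, vector and stage as additive terms. CPM values use TMM over 27 libraries, and log2 CPM a prior count of 2. The fit was tested on simulated counts with the same dispersion for all genes and no outlying libraries. That setting does not cover the few high libraries or the low counts seen here. The genes and lists were chosen with earlier results of these data known. Genes named from the fits are all 10 and at most 6 per pathway list past an adjusted p of 0.05 for stage, vector or sex, by smallest stage p. The 10 most like them are also named. Outside this rule, further list genes were named for their levels in the 5 libraries, after their values were seen, and others for checks of the labels. Each label names a separate mouse. Within groups, variance over counting noise was 14.53 to 296, so no pair of libraries agreed within sampling noise.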

Additional observations from a re-analysis of the deposited data

How the results depend on the processing

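The number of the 10 genes past the threshold was within 1.5 times its value in edgeR with TMM under most alternatives, and the stage and sex differences given for Krt23, S100a10, Tff3 and Sox9 kept their direction in all of them. For stage in WT females, edgeR called 0, and DESeq2 and a spread shared by all 9 groups called 2 each. In WT males 2 were called, 0 with the shared spread and 0 to 2 when leaving out 1 library. In KO males 0 were called, and 1 by DESeq2. For stage over 24 libraries 2 were called, 2 to 4 when leaving out 1 library and 4 without the 5 libraries over 100 Epcam counts, a setting chosen after the counts were seen. For sex over 24 libraries 1 was called, 1 to 2 when leaving out 1 library and 0 with at least 10 counts in every library, which drops Tff3 from the test. Library totals without scaling factors, also added after seeing the data, moved the median of all genes by 0.11 for sex and by -0.29 for the vector by sex interaction, and changed no count of the 10. Several differences that were not called turned direction: S100a10 by vector over 24 libraries was -0.11 to 0.020 when leaving out 1 library and 0.044 without the 5, Epcam by vector in Res males -1.24 to 2.34, Cldn4 by stage -1.55 to 0.015 and Cftr by stage -0.65 to 0.80, all when leaving out 1 library. Over 24 libraries the sign also changed when leaving out 1 library for Krt19, Epcam and Cd24a by stage, for Cd24a, Cldn4, Cftr, Epcam and Sox9 by vector, and for Cd24a, Cldn4, Cftr and Epcam by sex. Mouse numbers are shared by WDA and Res mice of different experiments and pair no animals. With a replicate block on the mouse numbers 2 and 3 in KO females, 3 genes were called in place of 2, with Krt23 at -3.26. FPKM in place of counts left the share of every gene in the 5 libraries within 1.5 times. Depth limits Cftr, Tff3, Cldn4 and Krt7 most.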
